A study of Homo sapiens with 13 samples.

Results

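The 10 genes described here encode the stathmins STMN1, STMN2, STMN3 and STMN4, the doublecortin family proteins DCX and DCLK1, the structural microtubule-associated proteins MAP2, MAPT (tau) and MAP1B, and the neuronal beta tubulin TUBB3. They were chosen as a list by gene symbol, without a threshold on any value, and all 10 were found among the 60639 genes of either deposited count table. The cells were H9, an established line of human embryonic stem cells, made to carry an inducible NEUROG2 gene. NEUROG2 is a proneural transcription factor, and the study used it to turn the stem cells into excitatory neurons. Every culture began in E8 stem cell medium and then moved to 3N, a neural medium, and each library came from the RNA of 1 well.

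The doxycycline set had 5 groups of 1 library: uninduced cells at day 0, uninduced cells at day 5 and day 11, and cells given doxycycline at 1 µg/ml throughout the 5 or 11 days. The FGF2 set had 4 groups of 2 libraries, and all of them received doxycycline for the first 6 days. Of the day-6 groups, 1 had FGF2 at 20 µg/ml together with doxycycline (early FGF2) and 1 did not. Both day-12 groups spent a further 6 days without doxycycline, 1 with FGF2 at 20 µg/ml (late FGF2) and 1 without. All cells carried the inducible gene, and no group had doxycycline without it. The titles call the cells hES-N1 in the doxycycline set, and in each FGF2-set group hES-N2G1 for the first library and hES-N2G2 for the second. The source names give hES-N1 throughout, and the labels do not say what these names mark (clones, lines or cultures). They also do not say whether the 2 libraries of a group came from separate differentiations, so p-values measure only the spread between these libraries. The sets were sequenced in separate runs.

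Microtubules are polymers of alpha and beta tubulin that carry transport and give axons and dendrites their form. Stathmins bind free tubulin dimers and promote microtubule shrinkage, and STMN2 is well known in growing and regenerating axons. Doublecortin, tau, MAP2 and MAP1B bind along the polymer and stabilise or bundle it. MAP2 marks dendrites, tau is mainly axonal, and DCX marks migrating and newly made neurons.

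Libraries of the doxycycline set held 28443657 to 47159475 counted reads, and those of the FGF2 set 22802501 to 30014661. NEUROG2, the induced gene, was at 0.456 to 6.26 CPM (counts scaled by TMM to 1000000 reads) in the 3 uninduced libraries and at 1018 to 1564 CPM in both induced libraries of that set. Its level was 7544 to 7831 CPM in the 4 day-6 libraries of the FGF2 set and at 49.3 to 54.7 CPM in the 4 day-12 libraries, after doxycycline had been withdrawn. The summed level of 8 markers of neurons was 84.6 to 112 CPM without doxycycline and 4508 to 10463 CPM with induction. The summed level of 8 markers of dividing cells was 1834 to 1938 CPM without doxycycline, 69.7 and 30.9 CPM with doxycycline on day 5 and day 11, 394 to 536 CPM on day 6 and 10.3 to 13.3 CPM on day 12. Markers of neural progenitors summed to 459 to 865 CPM without doxycycline and to 733 to 1608 CPM in the induced libraries, day 12 included. NES made up most of that sum in every induced library. On day 11 the sum was lower with doxycycline (733 CPM) than without it (865 CPM). There NES and VIM were higher with doxycycline. The other markers of the list were lower, among them SOX2 and PAX6 (101 CPM without and 4.54 CPM with doxycycline). Of the 6 markers of astroglia, 3 to 5 were at 1 CPM or more in the uninduced libraries, 1 or 2 in the induced libraries up to day 11, and none on day 12. The 2 early-FGF2 libraries stood apart: their counts differed by a chi-square of 21.2 for each degree of freedom, against 3.02 to 3.46 for the pairs of the other 3 groups, and results that rest on them are given below with and without each. In bulk RNA, fewer cells of a type and less RNA per cell cannot be told apart.

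Promoter windows were examined because these genes moved together on induction. RefSeq (GRCh38.p14) gave windows for 7 of the 10 genes: STMN1, STMN3, DCX, DCLK1, MAP2, MAP1B and TUBB3. They had 17 windows in all, and the 250 bases before each annotated start were read. The 6-letter E-box CAGATG, searched on both strands, has the general form that proneural factors bind. It was present in 4 of the 17 windows, belonging to 3 genes, against 12.2% of all 35116 windows of that length. In MAP2 it lay 11 bases before one start, in MAP1B 160 bases before one start, and in DCLK1 197 bases before one start and 228 and 20 bases before another. Most of the 17 windows overlapped annotated exons of their own gene. Such exons covered 17 bases of that MAP2 window, 159 of that MAP1B window and 194 of the DCLK1 window with 2 matches. The other E-box searched, CAGCTG, was in 0 of the 17 windows, against 14.0% of all windows. TATAAA was in 3 of them, against 10.7% of all windows. A match describes letters in a window and not a bound site. Of the windows that overlap no annotated exon of their gene, 3 are shown to set the window of DCLK1 that holds CAGATG beside windows of STMN3 and DCX that do not. They are written 5′ to 3′ on the minus strand, with capitals for CAGATG, and come from chr13:36131383-36131632, chr20:63652767-63653016 and chrX:111411147-111411396.
DCLK1: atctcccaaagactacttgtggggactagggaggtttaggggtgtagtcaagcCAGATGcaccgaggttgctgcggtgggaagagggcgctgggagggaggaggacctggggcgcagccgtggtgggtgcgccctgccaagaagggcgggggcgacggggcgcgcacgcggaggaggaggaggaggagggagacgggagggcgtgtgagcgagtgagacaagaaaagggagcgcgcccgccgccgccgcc
STMN3: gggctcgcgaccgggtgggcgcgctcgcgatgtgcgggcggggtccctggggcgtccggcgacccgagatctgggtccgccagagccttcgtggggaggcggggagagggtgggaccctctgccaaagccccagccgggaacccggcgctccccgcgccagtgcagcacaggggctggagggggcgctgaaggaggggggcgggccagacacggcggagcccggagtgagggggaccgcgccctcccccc
DCX: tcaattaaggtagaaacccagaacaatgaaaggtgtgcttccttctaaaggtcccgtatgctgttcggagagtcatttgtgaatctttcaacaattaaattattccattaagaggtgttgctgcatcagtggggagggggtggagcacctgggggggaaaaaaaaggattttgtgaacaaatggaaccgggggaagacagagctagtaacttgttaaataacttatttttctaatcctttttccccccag
Composition differed among them as well. The STMN3 window had a GC content of 78.0% and 28 CpG sites, the DCLK1 window 68.8% and 22, and the DCX window 42.0% and 3. The median over all windows was 58.0% and 11.

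All 10 genes were more abundant with doxycycline than without it on both days. On day 5 all 10 differed by at least 4-fold in log2(CPM + 1), each upward, where 24% of the 12894 genes at 10 CPM or more in either library differed by that much and 12.6% were higher. On day 11 all 10 were again at least 4-fold higher, against 21.4% of 12654 genes in either direction and 11.5% higher. The median log2 ratio of the 10 genes was 6.69 on day 5, beside 0.23 for all genes measured, and 5.20 on day 11, beside 0.16. Together the 10 genes summed to 640 to 1058 CPM in the uninduced libraries and to 15147 to 21801 CPM in the 10 induced libraries of both sets. With 1 library per group these ratios carry no test and no check by replicates, and their 95% exact binomial intervals cover counting error only.

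**Figure D1:**
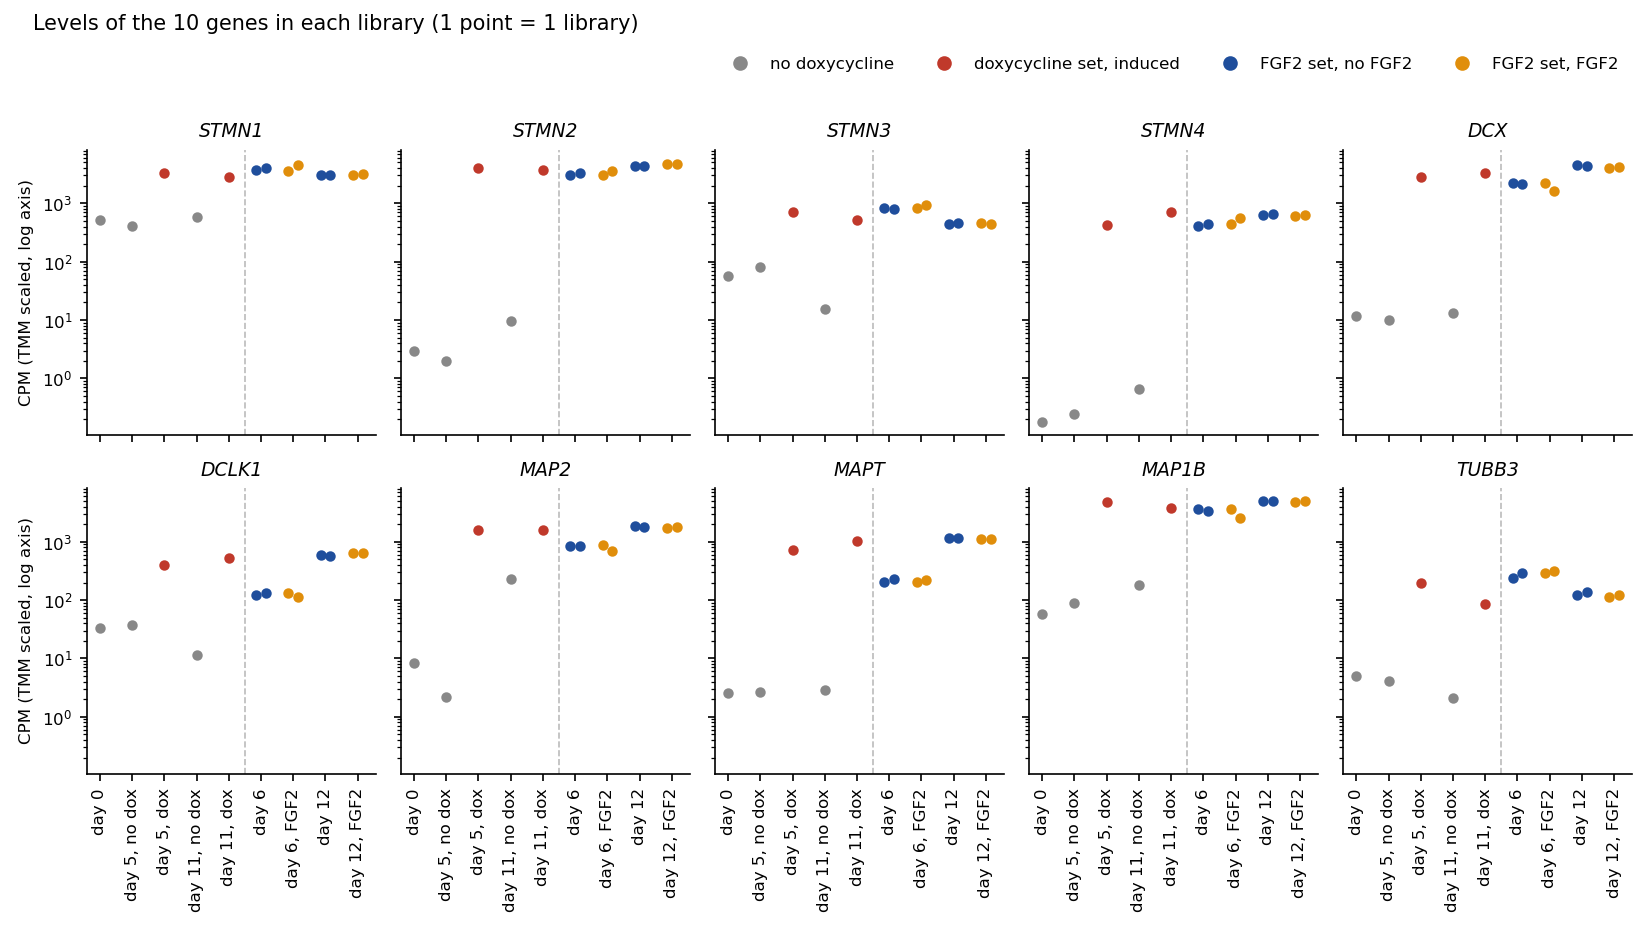
Levels of the 10 genes in TMM-scaled CPM on a log axis, with 1 point per library and the groups along the x axis. The dashed line separates the doxycycline set (left) from the FGF2 set (right), and dox stands for doxycycline. Every gene is lower in the 3 uninduced libraries (grey) than in every induced library, with MAP2 in the uninduced day-11 library at 234 CPM.

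Among the stathmins, STMN1 stood apart because it was already abundant in the stem cells. STMN1 (ENSG00000117632, chromosome 1, 25884181 to 25906991, GRCh38), the stathmin that dividing cells also use, was at 524 CPM on day 0, 413 on day 5 and 590.1 on day 11 without doxycycline. With doxycycline it was at 3357 CPM on day 5 and 2837 on day 11. The ratio of counts was 8.13 on day 5 (95% interval 7.99 to 8.28) and 4.81 on day 11 (4.73 to 4.88), the smallest ratios of the 10 genes on both days. The day-11 difference fell short of 4-fold when reads were scaled to library totals (log2 ratio 1.96) and in the authors' normalized values (1.88).

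STMN2 (ENSG00000104435, chromosome 8, 79610814 to 79666175), the stathmin of growing axons, showed the reverse picture, close to absent before induction. It had 115, 64 and 324 counts in the uninduced libraries of day 0, day 5 and day 11, or 2.91, 2.00 and 9.76 CPM, and 4019 and 3666 CPM with doxycycline. The ratio was 2014 on day 5 (95% interval 1577 to 2616) and 376 on day 11 (337 to 420). STMN4 (ENSG00000015592, chromosome 8, 27235323 to 27258420), a stathmin found mainly in neurons, had very few reads before induction, with 7, 8 and 22 counts. It reached 423 and 705 CPM with doxycycline, and its ratio was 1697 on day 5 (861 to 3932) and 1063 on day 11 (702 to 1697). The STMN4 interval is wide because so few reads stand in the denominator.

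STMN3 (ENSG00000197457, chromosome 20, 63639705 to 63657682), another neuronal stathmin, was less abundant in uninduced cells on day 11 than earlier, which was not seen for STMN1. It was at 57.3, 81.1 and 15.3 CPM without doxycycline on days 0, 5 and 11, and at 699 and 523 CPM with it. Without doxycycline it was 5.30-fold lower on day 11 than on day 5 (95% interval 4.82 to 5.84), while STMN1 was 1.43-fold higher (1.40 to 1.46). The ratio of STMN3 with doxycycline to without it was therefore 8.63 on day 5 (8.29 to 8.98) and 34.2 on day 11 (31.3 to 37.4), although its induced level was lower on day 11.

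Both members of the doublecortin family were induced from different starting points. DCX (ENSG00000077279, chromosome X, 111293779 to 111412429) was at 11.6, 9.82 and 13.2 CPM in uninduced cells on days 0, 5 and 11, and at 2838 and 3337 CPM with doxycycline. Its ratio was 289 on day 5 (95% interval 259 to 324) and 254 on day 11 (231 to 279). DCLK1 (ENSG00000133083, chromosome 13, 35768652 to 36131306), which joins doublecortin domains to a kinase domain in its long form, was at 32.8, 37.4 and 11.3 CPM and at 399.8 and 519 CPM. Its ratio was 10.7 on day 5 (10.1 to 11.4) and 45.8 on day 11 (41.4 to 50.9). Uninduced DCLK1 was 3.30-fold lower on day 11 than on day 5 (2.94 to 3.72), and DCX was 1.34-fold higher (1.16 to 1.55).

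Of the structural proteins, MAP2 (ENSG00000078018, chromosome 2, 209424058 to 209734118) stood out in uninduced cells, where it was far more abundant on day 11 than earlier. It was at 8.23 CPM on day 0, 2.15 on day 5 and 234 on day 11 in uninduced cells, and at 1600.5 and 1587 CPM with doxycycline. The uninduced day-11 level was 109 times that of day 5 (95% interval 85.8 to 140). The ratio with doxycycline to without it was 744 on day 5 (588 to 956) and 6.79 on day 11 (6.63 to 6.95), while both induced levels differed by 1.01-fold (0.997 to 1.02). Of the members at 10 CPM or more in either library, MAP2 was the only 1 of 6 at least 4-fold higher in uninduced cells on day 11 than on day 0, where 4.57% of all genes measured differed by that much and 2.11% were higher. From day 5 to day 11 without doxycycline, MAP2 was higher and STMN3 lower among 6 members measured, against 6.98% of all genes, 2.34% higher and 4.64% lower. STMN2 was 4.89-fold higher over those days (3.73 to 6.50) but stayed below 10 CPM. From day 0 to day 5, 0 of 5 members measured differed by 4-fold, against 1.05% of all genes.

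In that uninduced day-11 library the summed neuronal markers were at 95.6 CPM, close to the 112 CPM of day 0, while the summed markers of pluripotent stem cells were at 1876 CPM against 5998 on day 0. LIN28A made up most of the 1876 CPM. LIN28A (1196 CPM against 1197 on day 0) and CDH1 (253 against 267) were near their day-0 levels. The other pluripotency markers were lower, among them POU5F1 (38.9 against 1000 CPM), NANOG (0.181 against 37.3) and TDGF1 (6.41 against 495). The 8 neural progenitor markers summed to 865 CPM there, against 459 on day 0 and 724 on day 5. Of these, PAX6 was at 101 CPM against 1.32 on day 0, FABP7 at 56.0 against 3.60 and HES1 at 47.7 against 15.2. TFAP2A, a neural crest marker, was at 22.4 CPM against 0.177, although the 7 markers of its list summed to 151 CPM against 252. The part of these cell types in the MAP2 level was not tested. MAP1B (ENSG00000131711, chromosome 5, 72107234 to 72209570), an early protein of growing axons, was also higher there, at 57.5, 87.5 and 179 CPM on days 0, 5 and 11. With doxycycline MAP1B was at 4748 and 3765 CPM, which gave ratios of 54.3 on day 5 (95% interval 52.3 to 56.3) and 21.0 on day 11 (20.5 to 21.6). MAPT (ENSG00000186868, chromosome 17, 45894382 to 46028334) stayed between 2.58 and 2.89 CPM in the 3 uninduced libraries and was at 727 and 1040.2 CPM with doxycycline. Its ratio was 271 on day 5 (219 to 339) and 360 on day 11 (295 to 444). Tau, unlike MAP2, was thus near its day-0 level after 11 days without doxycycline.

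TUBB3 (ENSG00000258947, chromosome 16, 89921392 to 89938761), the beta tubulin used to mark neurons, was also higher with doxycycline on both days. It was at 4.91, 4.08 and 2.11 CPM in uninduced cells and at 194 and 85.5 CPM with doxycycline, with ratios of 47.4 on day 5 (95% interval 39.9 to 56.7) and 40.5 on day 11 (32.0 to 52.2). Its level with doxycycline was 2.26-fold lower on day 11 than on day 5 (2.17 to 2.36). TUBB3 levels are uncertain, because the readthrough gene AC092143.1 overlaps 35.8% of its exon bases and 89.5% of its 1769-base principal transcript. Reads that fall on both genes are ambiguous, and AC092143.1 had 0 counts in all 13 libraries. The processed pseudogene TUBB3P1 had 46 and 3855 counts on day 5 without and with doxycycline, or 1.43 and 93.2 CPM, so a part of the tubulin reads may be shared with it. The part these overlaps have in the TUBB3 level was not tested, and TUBB3 was left out of the order of levels per length.

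Per length, the leading stathmin changed with induction. Lengths were the union of a gene's exons, and levels are RPKM made from the scaled counts. In all 3 uninduced groups STMN1 was the highest of the 9 genes compared, at 65.9 to 94.2 RPKM. In all 6 induced groups STMN2 was first, at 1338 to 1985 RPKM as group levels, STMN1 second and DCLK1 last. On day 6 without FGF2 the order was STMN2 (1338 ± 58.5 RPKM, SD, n = 2), STMN1 (615 ± 34.9), MAP1B (276 ± 12.5), STMN3 (266 ± 4.11), DCX (215 ± 4.84), STMN4 (129.9 ± 8.21), MAP2 (73.8 ± 0.129), MAPT (14.4 ± 1.19) and DCLK1 (8.84 ± 0.371). Of these neighbours, MAP1B and STMN3 overlapped between libraries. On day 12 without FGF2 DCX (436 ± 7.82 RPKM) stood next after STMN1, STMN3 (150.3 ± 2.87) had moved behind MAP2 (160.1 ± 3.56), and no neighbours overlapped. With the longest transcript as the length, STMN2, STMN1 and DCLK1 kept their places, but STMN3 stood before MAP1B on day 6 and before MAP2 on day 12. By that length STMN3 and MAP2 overlapped between libraries on day 12 without FGF2, as did STMN2 and STMN1 on day 6 with FGF2.

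The share of STMN2 in the summed RPKM of the 4 stathmins was 0.903% to 3.99% in the uninduced libraries and 55.8% to 70.5% in the induced ones. STMN1 held 70.4% to 91.0% and 17.5% to 26.6%. Among MAP1B, MAP2 and MAPT, MAP2 held 58.5% in the uninduced day-11 library, and MAP1B was the largest in the other 12 libraries. The share of MAPT was 3.64% to 5.42% in the 4 day-6 libraries and 11.9% to 12.6% in the 4 day-12 libraries, without overlap. These shares depend on the length used: with the longest transcript STMN2 held 42.5% to 58.3% in induced libraries and MAPT 21.4% to 22.4% on day 12.

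**Figure D2:**
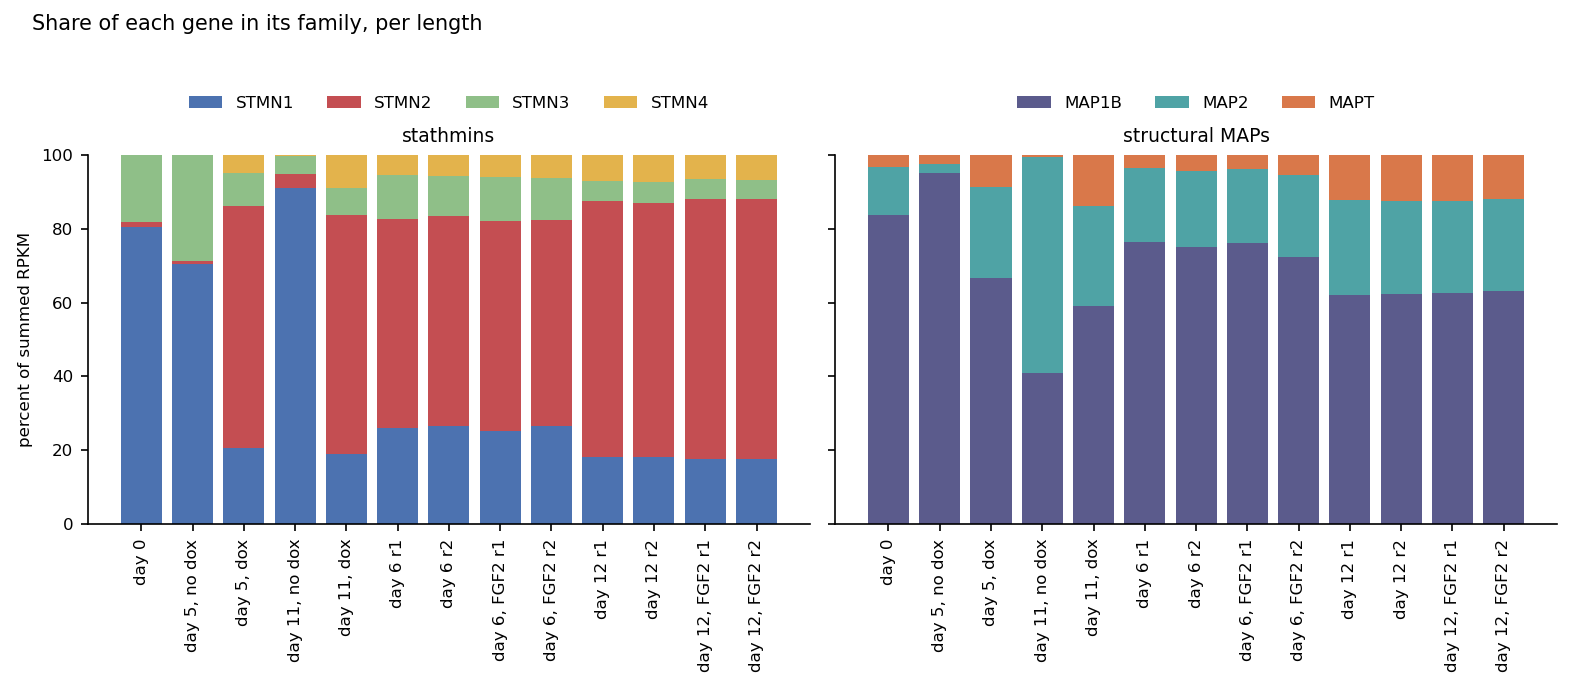
Share of each gene in the summed RPKM of its family, in percent, for the 4 stathmins (left) and 3 structural proteins (right), with 1 bar per library and r1 and r2 for the replicates. STMN1 fills most of the bars without doxycycline and STMN2 most of the others, and MAP2 is the largest structural share only in the uninduced day-11 library, at 58.5%.

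Between day 6 and day 12 without FGF2 the 10 genes moved in both directions. MAPT, DCLK1, MAP2, DCX, STMN4, MAP1B and STMN2 rose, and TUBB3, STMN3 and STMN1 fell. All 10 passed the test (edgeR quasi-likelihood, adjusted p under 0.05 over all 20142 genes tested), and 64% of all genes did so, 31.7% upward and 32.3% downward. A count of 10 called genes is thus read against a background in which most genes were called. The median log2 change of the 10 genes was 0.54, beside -0.0045 for all genes. Time in culture and the withdrawal of doxycycline changed together between these groups and cannot be told apart.

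Tau rose most. MAPT was at 202 and 227 CPM on day 6, against 1158 CPM in both day-12 libraries, a log2 change of 2.43 (SE 0.08, edgeR adjusted p = 6.12e-13). DCLK1 was at 123 and 131 CPM on day 6, with 586 and 573 on day 12, a log2 change of 2.19 (SE 0.08, edgeR adjusted p = 4.09e-12). In both genes every day-12 value was more than 4 times every day-6 value. MAP2 was at 854 and 852 CPM on day 6, against 1879 and 1821 on day 12, a log2 change of 1.12 (SE 0.09). DCX was at 2229 and 2159 CPM and at 4508 and 4395, a log2 change of 1.02 (SE 0.10). None of the 10 genes overlapped between the days, as was so for 84% of all genes tested.

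MAP1B, STMN2 and STMN4 rose by less. MAP1B was at 3600.3 and 3377 CPM on day 6, against 4978 and 4893 on day 12, a log2 change of 0.50 (SE 0.11, edgeR adjusted p = 0.0013). STMN2 was at 3063 and 3258 CPM and at 4404 and 4382, a log2 change of 0.47 (SE 0.08). STMN4 was at 409 and 447 CPM and at 626 and 661, a log2 change of 0.59 (SE 0.09). All day-12 values of these 3 genes lay above their day-6 values.

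Among the genes that fell, TUBB3 was at 239 and 292 CPM on day 6, against 124 and 136 on day 12, a log2 change of -1.03 (SE 0.10, edgeR adjusted p = 1.73e-07). Its pseudogene TUBB3P1 changed by -1.09 (SE 0.09). STMN3 was at 814 and 797 CPM and at 449.6 and 462, a log2 change of -0.82 (SE 0.07). STMN1 was at 3698 and 4007 CPM and at 3088 and 3083, a log2 change of -0.32 (SE 0.09, edgeR adjusted p = 0.0051), and without the second day-6 control library its change was -0.26 with an adjusted p of 0.060. The stathmins therefore did not move as 1 family: STMN2 and STMN4 rose while STMN1 and STMN3 fell. Transcript length moved with this comparison over all genes: the 25% of genes with the shortest transcripts had a median log2 change of -0.25 and the 25% with the longest 0.26 (Spearman rho 0.17 over 20006 genes). The 5 genes with transcripts of 6816 bases or more (MAPT, DCLK1, DCX, MAP2 and MAP1B) all rose, and the part of length in these changes was not tested.

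The doxycycline set offers a later against an earlier day with doxycycline kept on, in another run and over days 5 to 11. There 0 of 10 genes differed by 4-fold, against 1.96% of all genes measured. The log2 ratio was 0.52 for MAPT, 0.38 for DCLK1, 0.23 for DCX, -0.01 for MAP2, 0.73 for STMN4 and -0.13 for STMN2. It was -0.33 for MAP1B, -0.24 for STMN1, -0.42 for STMN3 and -1.17 for TUBB3. The sign was that of day 12 against day 6 in 7 of the 10 genes, and opposite in STMN2, MAP2 and MAP1B. The runs differ in days, doxycycline and sequencing, so the sizes are given side by side without a test.

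**Figure D3:**
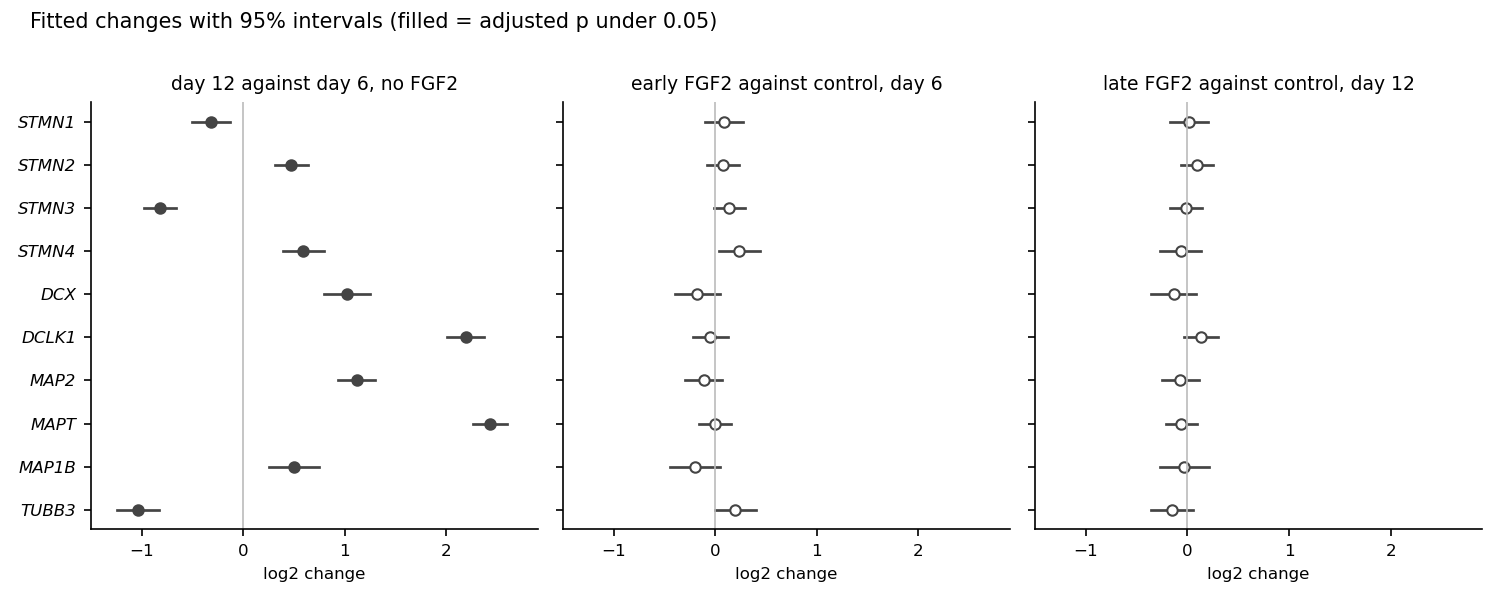
Fitted log2 changes of the 10 genes with 95% intervals for day 12 against day 6 without FGF2, early FGF2 and late FGF2, with 2 libraries per group. Filled points have an adjusted p under 0.05 over all genes tested. The changes from day 6 to day 12 run from -1.03 to 2.43, and all FGF2 changes lie between -0.20 and 0.24.

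None of the 10 genes passed the test for early or late FGF2 in the fit of all 8 libraries. With early FGF2 on day 6, 0 of 10 genes passed the edgeR test, where 0% of all genes did, and 1 gene was at an unadjusted p under 0.05 (STMN4), as were 658 of all genes. DESeq2 and limma voom also called 0 of the 10. STMN4 was at 409 and 447 CPM without and at 447 and 562 CPM with early FGF2, a log2 change of 0.24 (95% interval 0.04 to 0.44, edgeR adjusted p = 0.927). TUBB3 was at 239 and 292 CPM without and at 293 and 316 CPM with it, a log2 change of 0.20 (-0.0047 to 0.40). MAP1B was at 3600.3 and 3377 CPM without and at 3574 and 2497 with it, a log2 change of -0.20 (-0.44 to 0.04), and only its second FGF2 library stood clearly below the controls. Among the other stathmins the log2 change was 0.14 for STMN3, 0.09 for STMN1 and 0.08 for STMN2. It was -0.18 for DCX, -0.11 for MAP2, -0.05 for DCLK1 and -0.0058 for MAPT. The FGF2 and control libraries did not overlap in 2 of the 10 genes (STMN3 and TUBB3), against 28% of all genes tested.

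Late FGF2 on day 12 gave 0 of 10 genes passing the edgeR test, against 2.17% of all genes. At an unadjusted p under 0.05 were 0 of the 10, against 2151 of all 20142 genes. DESeq2 and limma voom on the 8 libraries also called 0. DCX was at 4508 and 4395 CPM without and at 4004 and 4110.0 CPM with late FGF2, a log2 change of -0.13 (95% interval -0.35 to 0.09, edgeR adjusted p = 0.735). DCLK1 was at 586 and 573 CPM without and at 637 and 636 with it, a log2 change of 0.14 (-0.03 to 0.30). STMN2 was at 4404 and 4382 CPM without and at 4632 and 4747 with it, a log2 change of 0.09 (-0.07 to 0.25). TUBB3 had the change furthest from 0, at 124 and 136 CPM without and 112 and 121 with late FGF2, a log2 change of -0.15 (-0.36 to 0.05). MAP2 was at 1879 and 1821 CPM without and at 1716 and 1804 with it, a log2 change of -0.07. MAPT was at 1158 CPM in both control libraries and at 1116 and 1107 with FGF2, a log2 change of -0.06. In these 6 of the 10 genes the FGF2 and control libraries did not overlap, against 46.4% of all genes tested. In STMN4 (-0.06), MAP1B (-0.03), STMN3 (-0.01) and STMN1 (0.01) they overlapped.

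DCX, DCLK1 and STMN2 were called when only the 4 day-12 libraries were fitted, which leaves out the spread of the day-6 libraries. That fit called 812 of all 18870 genes tested higher and 526 lower. There edgeR gave adjusted p = 0.0050 for DCX, 0.023 for DCLK1 and 0.042 for STMN2, with log2 changes of -0.13, 0.14 and 0.10. In the authors' deposited table from limma the changes were -0.14 for DCX (adjusted p = 0.00028), 0.13 for DCLK1 (0.015) and 0.09 for STMN2 (0.0098). In the authors' deposited table from DESeq2, DCX (-0.13, adjusted p = 0.019) and DCLK1 (0.13, adjusted p = 0.046) were called. The authors' deposited tables for early FGF2 called 0 of the 10 genes with either tool. Without either 1 of the early-FGF2 libraries, the log2 change of DCX with late FGF2 was -0.13.

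The difference between the late and the early FGF2 effect was tested as well. It passed for 0 of 10 genes by edgeR, against 0.73% of all genes, and DESeq2 and limma voom called 0 of the 10. At an unadjusted edgeR p under 0.05 were 2 genes, against 1475 of all 20142 genes tested. They were STMN4 with a difference of -0.30 (95% interval -0.59 to -0.02) and TUBB3 with -0.35 (-0.64 to -0.06). Without the first early-FGF2 library the differences were -0.46 for STMN4 and -0.41 for TUBB3, and without the second -0.13 and -0.30. The intervals of the other 8 genes include 0. Their differences were 0.19 for DCLK1, 0.17 for MAP1B, 0.04 for both DCX and MAP2, 0.02 for STMN2, -0.05 for MAPT, -0.07 for STMN1 and -0.15 for STMN3. The widest interval was that of MAP1B, from -0.18 to 0.51.

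The 2 early-FGF2 libraries disagreed on the 10 genes more than the other pairs did. The median absolute log2 difference between the pair was 0.27 over the 10 genes, against 0.03 to 0.09 in the other groups. In the second library MAP1B (2497 against 3574 CPM), DCX (1639 against 2244), MAP2 (706 against 869) and DCLK1 (114 against 132) were lower. In it STMN1 (4553 against 3623 CPM), STMN4 (562 against 447), STMN2 (3599 against 3070.1), STMN3 (941 against 833), TUBB3 (316 against 293) and MAPT (221 against 206) were higher.

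This split ran with transcript length. The lower genes have longest transcripts of 8007 to 12036 bases, and the higher ones of 1978 to 2947 bases, apart from MAPT with 6816. Over 10399 genes the difference between the pair had a Spearman rho of -0.70 with transcript length, against -0.08 to -0.23 in the other groups. The 25% of genes with the shortest transcripts differed by a median log2 of 0.21 and the 25% with the longest by -0.24. Without the first early-FGF2 library, the log2 changes with early FGF2 ran from -0.48 for MAP1B to 0.40 for STMN4. Without the second, they ran from -0.09 for STMN1 to 0.14 for TUBB3. Each of these fits leaves 1 early-FGF2 library, which is assumed to vary like the libraries of the other groups. That library has no replicate of its own, so only effect sizes are given here. Counts of calls from these fits appear only among the checks of processing below. The difference between late and early FGF2 ran from -0.46 for STMN4 to 0.45 for MAP1B without the first library. Without the second it ran from -0.30 for TUBB3 to 0.14 for STMN2. The part of the length trend in these changes was not tested.

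**Figure D4:**
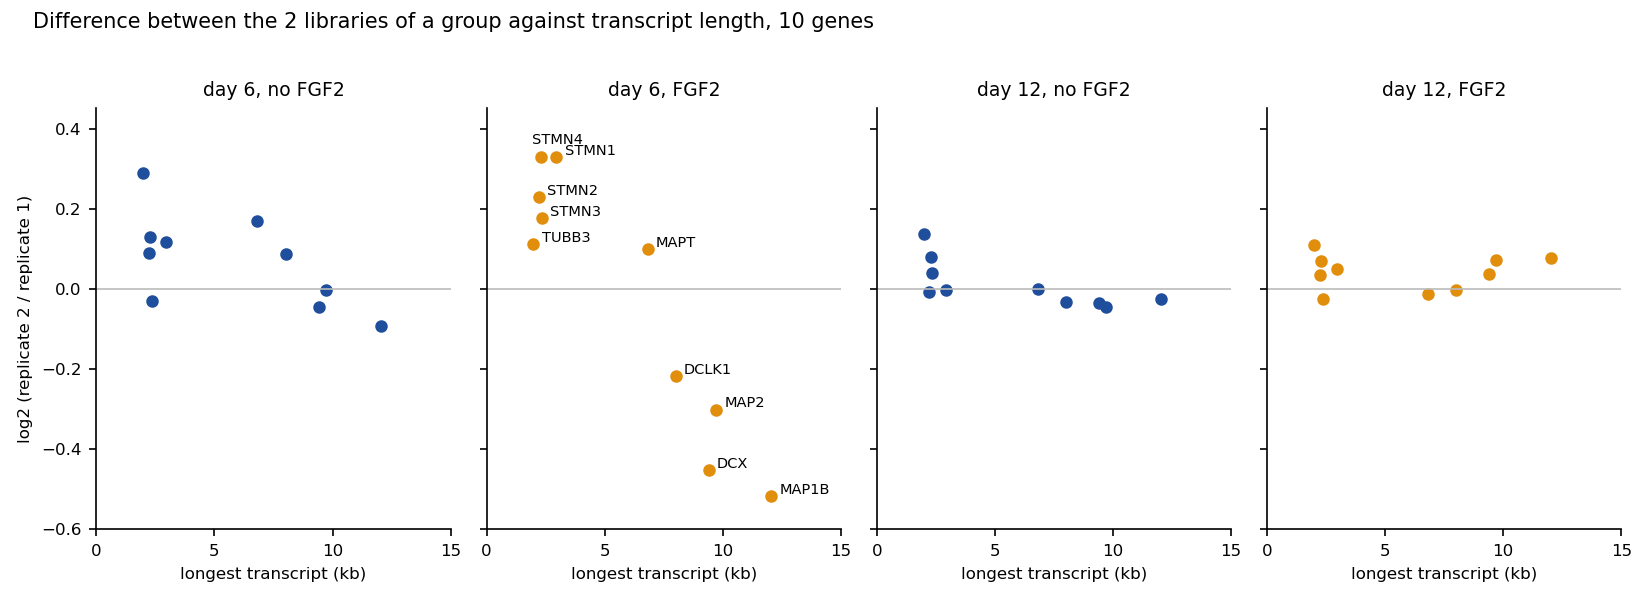
Log2 ratio of replicate 2 to replicate 1 within each group of the FGF2 set (y axis) against the length of the gene's longest transcript in kilobases (x axis), with 1 point per gene. In the early-FGF2 group on day 6 the points run from 0.33 for STMN1 and STMN4 down to -0.52 for MAP1B, and in the other groups they lie between -0.09 and 0.29.

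Related microtubule genes were taken from a list of 83 in 13 classes, of which 82 are in the tables. With doxycycline 35 of 76 measured were at least 4-fold higher and 3 lower on day 5, and 32 and 3 of 75 on day 11, where 24% and 21.4% of all genes measured differed by that much in either direction. Their median log2 ratios were 1.82 and 1.49, below those of the 10 genes. All 5 collapsin response mediator genes, which act in axon guidance, were at least 4-fold higher on both days. On day 5 the highest were MAP6 (1.31 to 669 CPM), which stabilises neuronal microtubules, MAP1A (2.77 to 686 CPM), a relative of MAP1B, TUBA1A (104 to 7559 CPM), the main neuronal alpha tubulin, and CDK5R2 (0.405 to 96.7 CPM), an activator of the tau kinase CDK5. On day 11 they were CDK5R2, TPPP, MAP6 and DCLK2. The 3 lower ones were MAP7, NDE1 and MAP7D3 on both days, and NDE1, which dividing cells use at the spindle, was at 20.4 and 1.74 CPM on day 5.

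From day 5 to day 11 with doxycycline 0 of 73 related genes differed by 4-fold, against 1.96% of all genes measured, and without doxycycline 0 of 64 did from day 0 to day 5, against 1.05%. In uninduced cells 4 were higher and 2 lower of 70 on day 11 against day 0, where 4.57% of all genes differed and 2.11% were higher. Against day 5 they were 5 and 2 of 69, where 2.34% of all genes were higher and 4.64% lower. MAP1A, DPYSL5, MAP6 and NAV3 led the higher ones in both, and VASH2 and TUBA4A were the lower ones. DPYSL5 was at 12.6 CPM on day 5 and 119 CPM on day 11 without doxycycline, and MAP1A at 2.77 and 27.7 CPM. VASH2, part of an enzyme that removes the end tyrosine of alpha tubulin, was at 295 and 12.1 CPM.

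From day 6 to day 12 without FGF2, 43 of 80 related genes tested rose and 17 fell, where 31.7% of all genes rose and 32.3% fell. Their median log2 change was 0.28 beside -0.0045 for all genes. All 3 minus-end binding CAMSAP genes rose, and CAMSAP2 and CAMSAP3 rose by 2.05 and 2.02 on the log2 scale. Of 14 plus-end tracking genes 9 rose, among them MAPRE2 (315 ± 5.27 to 959 ± 0.291 CPM, SD, n = 2) and NAV3 (11.4 ± 0.0418 to 86.0 ± 4.64), and 1 fell. VASH2 (25.5 ± 0.582 to 117 ± 3.19 CPM) and MAP7D2 (2.88 ± 0.179 to 32.7 ± 2.74) were the other genes of smallest p that rose. Of 4 alpha tubulins 0 rose and 2 fell, TUBA4A (13.2 ± 1.75 to 0.974 ± 0.170 CPM) and TUBA1B. Of 6 beta tubulins 3 rose and 3 fell, and TUBB6 (37.4 ± 1.07 to 8.14 ± 0.442 CPM) fell most. Of 2 gamma tubulins TUBG2 rose by 1.35 on the log2 scale. Of 5 tubulin folding cofactors 0 rose and 2 fell. MAP1A (889 ± 33.7 to 279 ± 4.08 CPM) fell while its relative MAP1B rose. NDE1 (7.43 ± 1.77 to 0.269 ± 0.0785 CPM) also fell, and the summed markers of dividing cells were lower by day 12 too. The part of that marker change in these results was not tested.

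**Figure D5:**
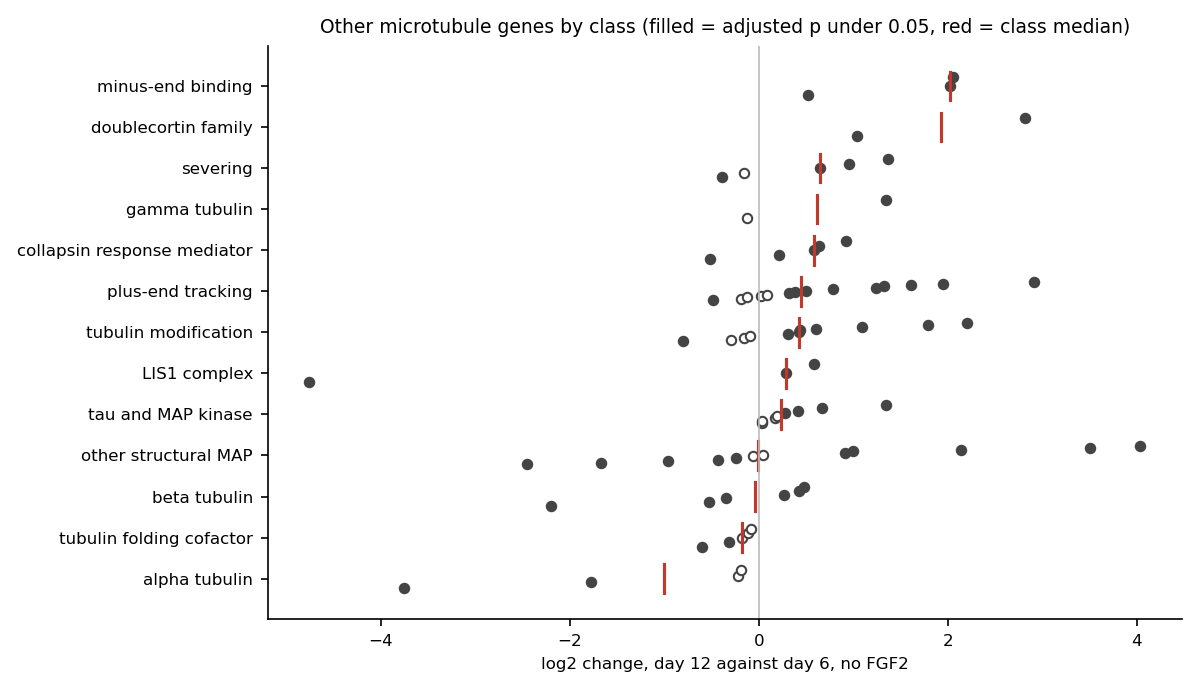
Log2 change from day 6 to day 12 without FGF2 (x axis) of the 80 related genes tested, by class (y axis), with 1 point per gene and a red line at the class median. Filled points have an adjusted p under 0.05. The minus-end binding class has the highest median, 2.02, and the alpha tubulins the lowest, -0.999.

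Neither FGF2 treatment called a related gene. With early and with late FGF2 0 of 80 passed the edgeR test, against 0% and 2.17% of all genes. At an unadjusted p under 0.05 were 2 with early FGF2 (TPPP3 and MAP7) and 3 with late FGF2 (TUBA1B, TUBA4A and MAP6). Of all 20142 genes, 658 with early and 2151 with late FGF2 were at such a p. DESeq2 and limma voom also called 0 of the related genes in both. The smallest p with late FGF2 was that of TUBA1B, with a log2 change of 0.77 (edgeR adjusted p = 0.101). TUBA1B was at 97.2 and 94.8 CPM without and at 105 and 222 CPM with late FGF2, so its change rests on the second FGF2 library. Without that library the log2 change was 0.13, and without the first it was 1.22. Fits without 1 of the early-FGF2 libraries leave that group without a replicate. No related gene is named as called from them, and their counts of calls appear only among the checks of processing below.

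Genes with the most similar pattern over the 13 libraries were sought for 3 members among 11102 genes, by Pearson correlation of log2(CPM + 1) centred within each run. For STMN2 they were CADPS, GAP43 and C19orf12 (all 0.998). For TUBB3 they were DPYSL4 (0.997), TUBB3P1 (0.996) and THSD7B (0.994), and for STMN1 they were ATP6V1G1 (0.997), TMSB10P1 (0.996) and TMSB10 (0.996). The libraries fall into induced and uninduced groups, which alone give high correlations. By Spearman correlation none of these 9 genes was among the nearest 3.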

How the data were processed

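RNA was sequenced in 13 libraries with a TruSeq v2 kit that the labels do not describe as stranded, so a gene and an antisense partner may share reads. The authors deposited raw read counts per gene. Per the submitters' processing notes, these came from Subread and featureCounts 1.5.0 with the GRCh38 build. The GENCODE release is not given in the sources used here. They also deposited normalized signal values of the doxycycline set, on a linear scale, used here as an alternative. Tables of log2 changes and adjusted p-values from DESeq2 and limma, deposited by the authors for early and late FGF2, were copied where named. The 16 per-sample columns in those tables were not used.

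Counts of the FGF2 set were fitted with edgeR 4.0.16 in R 4.3.3 (filterByExpr, TMM, quasi-likelihood, 1 mean per group, all 8 libraries, two-sided, Benjamini-Hochberg over 20142 genes). The doxycycline set has 1 library per group, so log2 ratios of CPM after adding 1 CPM were counted at 4-fold among genes at 10 CPM or more in either library. Intervals are exact binomial intervals of the counts and cover counting error only. The fitting code was tested on simulated counts. Lengths and coordinates came from GENCODE on GRCh38.

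All 10 members are named in every comparison. Of the related genes, up to 4 in each direction of smallest adjusted p (FGF2 set) or of the largest and smallest ratio (doxycycline set) are named, and others were named after their values were seen. The members and lists were chosen with earlier results of these data known. Replicates are numbered as in the titles. Alternatives were DESeq2 1.42.0, limma 3.58.1 (voom), other normalizations, filters, pseudocounts, thresholds and lengths, a replicate block, and leaving out each library. The labels disagree on 2 points. The titles and source names of the FGF2 set name the cells differently. The descriptions of the day-12 controls give 6 days of growth, while their titles and media periods give day 12, which was used.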

Additional observations from a re-analysis of the deposited data

How the results depend on the processing

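Under every alternative run, 0 called values of the 10 genes reversed, and of 630 member values in the FGF2 set 21 that were called in neither fit changed sign. Leaving out 1 library at a time gave 9 to 10 members called for day 12 against day 6, 0 to 8 for early FGF2, 0 to 1 for late FGF2 (DCX) and 0 to 7 for the difference of effects. For the related genes it gave 53 to 69, 0 to 30, 0 to 4 and 0 to 18. The high ends for early FGF2 and the difference came from leaving out the first early-FGF2 library. Each of these fits leaves 1 group with a single library and no replicate. The ranges therefore show only how far the counts depend on single libraries, and their high ends are not taken as results. Fitting only the 4 libraries compared called 3 members and 7 related genes for late FGF2, where 812 of all 18870 genes were called higher and 526 lower. No filter on low counts called 1 related gene (TUBA1B) for late FGF2, where 461 of all 38116 genes were called higher and 195 lower. It called 1 (TUBA1B) for the difference of effects, where 216 of all 38116 genes were called higher and 52 lower. TUBA1B rests on the second late-FGF2 library, and without it the log2 change was 0.13.

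With the replicate block 1 related gene (TUBA1B) was called for late FGF2, where 435 of all 20142 genes were called higher and 163 lower. No member call changed with that block. In all 4 groups the titles give hES-N2G1 for replicate 1 and hES-N2G2 for replicate 2. The correlation of deviations between same-numbered libraries ran from 0.0036 to 0.40 over the 6 pairs of groups, and the labels do not say what these names mark, so the libraries were not taken as paired. At 2-fold in place of 4-fold, the related genes counted with doxycycline were 59 on day 5 and 56 on day 11. The share of all genes that differed by 2-fold is not given here, so counts at 2-fold have no background to be read against. From day 5 to day 11 with doxycycline 1 member (TUBB3) and 4 related genes (MAP1A, TUBA4A, MAP7D2 and MAP7D1) then differed. Without doxycycline 1 related gene (HDAC6) differed from day 0 to day 5, 4 members (STMN3, DCLK1, MAP2 and MAP1B) and 18 related genes from day 0 to day 11, and the same 4 members and 15 related genes from day 5 to day 11. The cause of these shifts was not tested beyond the fewer libraries or the lower threshold that define them.

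In the fit of all 8 libraries the 95% intervals of the members' early and late FGF2 effects reached 0.16 to 0.24 on the log2 scale to either side, which limits the effects that fit can tell from 0. The fits of fewer libraries called changes smaller than that. In uninduced cells STMN4 rests on 7 to 22 counts.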
